A study of Mus musculus with 17 samples.

Results

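A set of 10 genes of the small blood vessels was followed in the mouse hippocampus with age, namely 7 of brain endothelial cells (Cldn5, Pecam1, Cdh5, Flt1, Calcrl, Slco1a4 and Abcb1a) and 3 of pericytes (Rgs5, Pdgfrb and Vtn). These 10 of 36602 named genes were chosen as well-known genes of the 2 cell types, except that Calcrl and Rgs5 were selected on their measured log2 fold changes, which differed between the 2 comparisons of these same data. For Calcrl and Rgs5 the age differences are therefore given as descriptions, without a test, and tests are given for the other 8 genes. RNA was sequenced from whole hippocampus of untreated wild-type C57BL/6J mice in 4 groups. There were 5 libraries of mice 3 months old (3M) and 6 of mice 24 months old (24M) sequenced as single reads, and 3 libraries of 3M mice and 3 of mice 29 months old (29M) sequenced as read pairs. Each old group was set against the 3M samples sequenced in the same way, so the comparisons share no samples. Age and library type cannot be told apart in the contrast of 24M with 29M, and the oldest mice had been bought at 24 months and then kept in the animal house of the study. Replicates 1 and 4 of the 24M group differed by less than the sampling noise between libraries and were counted as 1 sample, which left 5 samples at 24M. The labels do not say that each library came from its own mouse, so p-values measure the spread between these samples.

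Brain endothelial cells line the capillaries and form the blood-brain barrier. They seal their contacts with tight and adherens junctions, hold few transport vesicles, and carry transporters that bring in nutrients and pump foreign compounds back to the blood. Pericytes sit on the outer face of the capillary in its basement membrane, are recruited by platelet-derived growth factor from the endothelium, and are needed for the barrier to form and to last. In RNA of a whole tissue, fewer cells of a type and less RNA per cell cannot be told apart, and this holds for every difference below.

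Reads assigned to genes came to 19144461 to 28438296 per 3M single-end sample, 9213474 to 19756411 at 24M, 10977976 to 15054972 per 3M paired-end sample and 10991389 to 13563541 at 29M. The 10 genes had 85 to 2795 counts per sample, and all 10 passed the filter on low counts in both comparisons. Beside them, 22 other endothelial and 16 other pericyte genes were read, all of which had counts in every group. Such counts do not test whether the 10 genes mark vascular cells in these samples. The summed level of the 22 endothelial genes was 477 to 528 CPM (counts scaled to library size) in 3M single-end samples and 496 to 581 CPM at 24M. It was 447 to 506 CPM in 3M paired-end samples and 424 to 482 CPM at 29M. The ranges of the old and young groups overlapped in both comparisons. A single sample stood apart in its regional makeup, since the summed level of 8 striatal genes was 589 CPM in 3M single-end replicate 4 against 136 to 207 CPM in the other 4 samples of that group.

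The stretches just upstream of Cldn5 and Rgs5 are shown because these are the endothelial gene that passed the test at 24M and the pericyte gene with the largest difference there. Each is 250 bases long, ends 1 base before the RefSeq gene start on GRCm38.p6 and is written 5′ to 3′ on the plus strand (Cldn5 at chr16:18776597-18776846, Rgs5 at chr1:169655251-169655500). Capitals mark GGAA, the core of sites bound by ETS factors, or TTCC on the other strand.
Cldn5: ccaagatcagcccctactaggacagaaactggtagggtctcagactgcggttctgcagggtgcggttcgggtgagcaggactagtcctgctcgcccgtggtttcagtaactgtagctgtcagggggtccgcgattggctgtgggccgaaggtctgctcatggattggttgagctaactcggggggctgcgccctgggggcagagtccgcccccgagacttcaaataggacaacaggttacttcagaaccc
Rgs5: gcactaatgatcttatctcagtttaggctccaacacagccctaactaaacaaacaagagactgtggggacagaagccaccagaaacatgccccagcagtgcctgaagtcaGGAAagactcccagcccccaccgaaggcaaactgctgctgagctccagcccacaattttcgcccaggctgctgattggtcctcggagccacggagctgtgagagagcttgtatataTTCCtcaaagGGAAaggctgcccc
The Rgs5 stretch held 3 ETS cores as well as 1 match to TAAACA (bound by forkhead factors), 1 to ACAAT (by SOX factors) and 1 to AGATAA (by GATA factors), with both strands read and overlaps between motifs allowed. The Cldn5 stretch held none of these 4 motifs. Among 32841 upstream windows of the same length, 93.5% held the ETS core, 12% the forkhead letters, 27.7% the SOX letters and 9.99% the GATA letters. Such matches describe letters only. The promoter table had an entry for 7 of the 10 genes, and Pecam1, Cdh5 and Pdgfrb had none.

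Levels between genes were compared per kilobase of exon (CPM per kb), with all annotated exons of a gene joined. For Flt1 (13504 bases), Slco1a4 (6414) and Pecam1 (6228) this length far exceeds the longest transcript (6895, 3823 and 3441 bases). The places of these 3 genes in the order below therefore depend on the length used. In 3M single-end samples Vtn was at 30.6 ± 4.37 CPM per kb (SD, n = 5), Cldn5 at 23.8 ± 5.41 and Rgs5 at 22 ± 2.65, and neighbours in this order overlapped within their SDs. Slco1a4 followed at 7.74 ± 1.46, apart from its neighbours. Pdgfrb, Flt1 and Abcb1a lay at 5.19, 5.13 and 4.96 CPM per kb and could not be ordered. Cdh5 at 3.49 and Pecam1 at 3.32 could not be ordered either, and Calcrl was the lowest at 1.63 ± 0.228. At 24M Rgs5 stood at 29.0 CPM per kb and Cldn5 at 15.8, while in both paired-end groups the order of these 2 was the same as at 24M, with 22.5 against 19.0 at 3M and 20.7 against 15.8 at 29M. Vtn stood first and Calcrl last in all 4 groups, though Vtn and Rgs5 overlapped within their SDs at 24M.

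At 24M the level of Cldn5 fell by 34.1% from that at 3M, and none of the other 7 tested genes passed the test. Calcrl lay 61.9% and Rgs5 32.3% higher. At 29M none of the 8 tested genes passed, and the levels of Calcrl and Rgs5 lay close to those of 3M. A gene was called when its adjusted p was at most 0.05 and its log2 fold change at least 0.5 in size. In the quasi-likelihood test of edgeR (Benjamini-Hochberg adjusted), 1.35% of 15683 genes tested were called higher and 0.65% lower at 24M. The corresponding shares of 15097 genes at 29M were 1.34% and 0.113%. Of the 8 tested genes 1 was thus called lower at 24M, and 0 were called in either direction at 29M, where 2619 genes had an unadjusted p under 0.05 and DESeq2 called 0 of the 8 as well. Of the 8, 5 had positive log2 fold changes at 24M (median 0.125) and 1 had at 29M (median -0.07). The median over all genes tested was -0.00299 at 24M and -0.0021 at 29M.

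**Figure D1:**
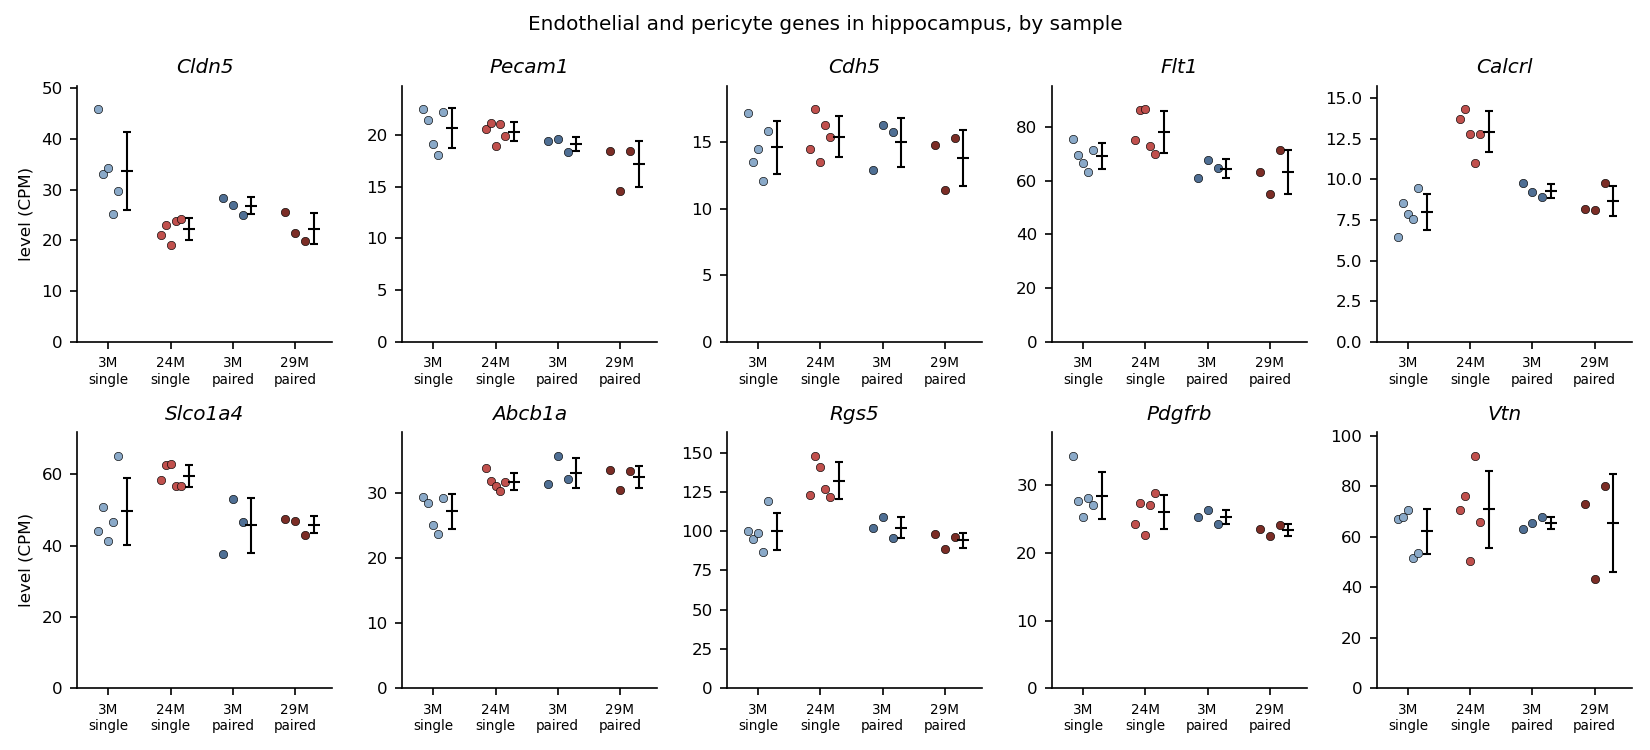
Level (CPM, y axis from 0) of each of the 10 genes in every sample of the 4 groups, with the mean and SD of each group as a bar beside the points. All 5 Cldn5 values at 24M (19.2 to 24.2 CPM) lie below the 3M single-end values, all 5 Calcrl and all 5 Rgs5 values lie above theirs, and the paired-end groups of these 3 genes overlap.

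Cldn5 encodes claudin-5, the main claudin of tight junctions between brain endothelial cells (ENSMUSG00000041378, chromosome 16, 18776847 to 18778262, plus strand, GRCm38). Its level was 45.9, 33.2, 34.4, 25.3 and 29.7 CPM in 3M single-end replicates 1 to 5. At 24M it was 21.1 CPM in replicates 1 and 4 counted together, and 23.1, 19.2, 23.9 and 24.2 CPM in replicates 2, 3, 5 and 6. The groups did not overlap, though 3M replicate 4 at 25.3 CPM lay only just above the highest 24M sample, and 3M replicate 1 was the highest of all. Over all genes tested, every 24M sample lay below every 3M sample for 3.43% and above for 3.15%. The mean fell from 33.7 ± 7.67 CPM to 22.3 ± 2.1 (SD, n = 5 each), a log2 fold change of -0.60 ± 0.13 (SE, adjusted p = 0.0239, edgeR's quasi-likelihood test, Benjamini-Hochberg). The call was lost when 24M replicate 2 (log2 fold change -0.61, adjusted p = 0.0613) or replicate 3 (-0.56, 0.0559) was left out of the edgeR fit. It was also lost without 3M replicate 1, where the adjusted p from edgeR stayed at 0.0356 but the log2 fold change was -0.47, short of the fold threshold. Without the 3M sample high in striatal genes it was kept.

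In the paired-end libraries Cldn5 was at 28.4, 27.0 and 25.1 CPM at 3M and at 25.7, 21.5 and 19.8 CPM at 29M. The highest 29M sample lay above the lowest 3M sample, so the groups overlapped. The log2 fold change was -0.27 ± 0.09 (SE, n = 3 each, edgeR, Benjamini-Hochberg adjusted p = 0.147). With other settings the adjusted p ran from 0.0184 (edgeR with no filter) to 0.631 (edgeR with all 4 groups), and was 0.351 with DESeq2. The log2 fold change stayed between -0.32 and -0.27 in these fits, under the fold threshold. The 29M difference minus the 24M difference was 0.33 ± 0.21 on the log2 scale with an adjusted p of 0.584 by the same edgeR test, so the differences at the 2 ages were not shown to be unequal.

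The other junction genes gave no difference beyond the spread between samples. Pecam1, which encodes the adhesion molecule CD31 at contacts between endothelial cells (ENSMUSG00000020717, chromosome 11, 106654217 to 106750628, minus strand), ranged from 18.1 to 22.5 CPM at 3M and from 18.9 to 21.2 CPM at 24M. Its log2 fold change was -0.02 ± 0.08 at 24M and -0.15 ± 0.10 at 29M, and the edgeR adjusted p (Benjamini-Hochberg) was 0.88 and 0.457. Cdh5 encodes VE-cadherin, the cadherin of endothelial adherens junctions (ENSMUSG00000031871, chromosome 8, 104101625 to 104144511, plus strand), and lay between 12.1 and 17.2 CPM at 3M and between 13.5 and 17.5 CPM at 24M. Its log2 fold change was 0.07 ± 0.10 at 24M and -0.11 ± 0.12 at 29M (edgeR, Benjamini-Hochberg adjusted p of 0.699 and 0.697). Among 13 further genes of tight and adherens junctions, 0 were called in either comparison at adjusted p by edgeR, and the medians of their log2 fold changes were 0.05 (24M) and -0.01 (29M).

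Flt1 encodes a receptor of vascular endothelial growth factor (VEGF) that binds the ligand tightly and limits its signal (ENSMUSG00000029648, chromosome 5, 147561604 to 147726011, minus strand). Its level was 63.1 to 75.7 CPM at 3M and 69.8 to 86.6 CPM at 24M, and 61.0 to 67.8 CPM against 55.0 to 71.4 CPM in the paired-end groups, overlapping both times. Its difference on the log2 scale was 0.18 ± 0.07 at 24M and -0.03 ± 0.08 at 29M (edgeR's quasi-likelihood test, Benjamini-Hochberg adjusted p of 0.139 and 0.901). Of 12 other genes of VEGF and angiopoietin signalling, 1 was called higher at 24M and 0 at 29M. That gene was Angpt2, an angiopoietin made by endothelium that loosens vessel walls, at 1.38 to 1.89 CPM at 3M and 2.11 to 2.88 CPM at 24M (log2 fold change 0.64, edgeR's Benjamini-Hochberg adjusted p = 0.0343). Its call was lost in 4 of the 11 fits that left out 1 library, namely those without 24M replicate 2 or 5 or without 3M replicate 1 or 2. It was also lost with the 24M replicates 1 and 4 left out (edgeR adjusted p 0.0868) and after thinning to equal depth (edgeR adjusted p 0.117).

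Calcrl encodes the calcitonin receptor-like receptor, which pairs with RAMP proteins to bind the dilator peptides CGRP and adrenomedullin (ENSMUSG00000059588, chromosome 2, 84330626 to 84425411, minus strand). Its level was 6.46, 8.52, 7.84, 7.54 and 9.44 CPM in 3M single-end replicates 1 to 5. At 24M it was 13.7 CPM in replicates 1 and 4 together and 14.3, 12.8, 11 and 12.8 CPM in replicates 2, 3, 5 and 6, so each 24M sample lay above each 3M sample. In the paired-end libraries it was 9.76, 9.23 and 8.90 CPM at 3M and 8.16, 8.08 and 9.74 CPM at 29M, and the groups overlapped. The log2 fold change was 0.69 ± 0.11 at 24M and -0.09 ± 0.12 at 29M, and the 29M value minus the 24M value was -0.80 ± 0.17 (SE). These are the values for which the gene was chosen. Leaving out 1 library at a time moved the first from 0.63 to 0.76 and the second from -0.19 to -0.05. Calcrl rested on the fewest reads of the 10 genes, with 119 to 248 counts per 24M sample and 85 to 134 per 29M sample.

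The partners of Calcrl were looked at as a list of 9 genes, of which 6 passed the filter and 0 were called at either age by edgeR at adjusted p. Ramp2, which steers Calcrl towards adrenomedullin, differed by 0.19 (24M) and -0.01 (29M) on the log2 scale. Ramp1, which steers it towards CGRP, had -0.15 and -0.02, and Ramp3 had -0.62 and -0.05. The edgeR adjusted p of Ramp3 at 24M was 0.165 (Benjamini-Hochberg). For the ligands Adm and Calca the log2 fold changes were 0.41 and -0.13 at 24M and 0.10 and -0.34 at 29M, and neither passed the test.

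Slco1a4 encodes an organic anion transporting polypeptide of the barrier (ENSMUSG00000030237, chromosome 6, 141805440 to 141856199, minus strand), and Abcb1a encodes P-glycoprotein, a pump that returns drugs to the blood (ENSMUSG00000040584, chromosome 5, 8660077 to 8748575, plus strand). Slco1a4 ranged from 41.4 to 65.2 CPM at 3M and from 56.7 to 62.8 CPM at 24M, and its 3M range held the whole of the 24M range. Its log2 fold change was 0.26 ± 0.10 at 24M and 0.00 ± 0.10 at 29M (edgeR, Benjamini-Hochberg adjusted p of 0.125 and 0.997). Abcb1a was at 29.4, 28.5, 25, 23.7 and 29.2 CPM at 3M and at 33.8, 31.8, 31.0, 30.3 and 31.7 CPM at 24M, so the groups did not overlap. This gave a log2 fold change of 0.22 ± 0.07, and its edgeR adjusted p of 0.0729 (Benjamini-Hochberg) missed the threshold. In other fits the adjusted p ran from 0.033 (edgeR with all 4 groups) to 0.216 (edgeR with GC offsets), and was 0.048 with DESeq2, but the log2 fold change stayed between 0.16 and 0.25, under the fold threshold. At 29M the value was -0.03 ± 0.07, with levels of 30.5 to 33.5 CPM against 31.4 to 35.7 CPM at 3M. Both genes have close relatives in the genome, and reads that align to several places may have been left out of their counts. In Abcb1a 553 bases of exon overlap a gene on the opposite strand, and reads there cannot be told apart without strand. Of 16 other barrier transporters 15 were tested and 0 were called in either comparison. Slc2a1, the glucose transporter of the barrier, differed by 0.28 on the log2 scale in 24M samples, under the fold threshold, with an edgeR Benjamini-Hochberg adjusted p of 0.0318. The adjusted p by edgeR was also under 0.05, with folds under the threshold, for the lipoprotein receptor Lrp1 at 24M (-0.20, 0.0343) and for the transferrin receptor Tfrc at 29M (-0.27, 0.0222).

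Rgs5 encodes a regulator of G protein signalling that is abundant in brain pericytes (ENSMUSG00000026678, chromosome 1, 169655501 to 169695813, plus strand). Its level was 99.9, 95.1, 98.7, 86.5 and 119 CPM in 3M single-end replicates 1 to 5, and 123 CPM at 24M in replicates 1 and 4 together. Replicates 2, 3, 5 and 6 at 24M were at 148, 141, 127 and 122 CPM, so the groups did not overlap, with 3M replicate 5 just below the lowest 24M sample. In the paired-end libraries the gene was at 102, 109 and 95.8 CPM at 3M and at 97.9, 88.4 and 96.0 CPM at 29M, and the groups overlapped. On the log2 scale the difference was 0.40 ± 0.08 at 24M and -0.12 ± 0.05 at 29M, and the 29M value minus the 24M value was -0.53 ± 0.12 (SE). These again are the values for which the gene was chosen, and leaving out 1 library at a time moved them between 0.36 and 0.47 and between -0.17 and -0.07. Of 9 other genes of its subfamily of RGS proteins 6 were tested and 0 were called, and the medians of their log2 fold changes were -0.04 (24M) and -0.05 (29M). Among them Rgs4 differed by -0.39 at 24M, under the fold threshold, with an edgeR Benjamini-Hochberg adjusted p of 0.0213.

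Pdgfrb encodes the receptor for platelet-derived growth factor B on pericytes (ENSMUSG00000024620, chromosome 18, 61045150 to 61085061, plus strand). Its level was 25.2 to 34.3 CPM at 3M and 22.6 to 28.8 CPM at 24M, with overlap. In the paired-end libraries it was at 25.3, 26.3 and 24.2 CPM at 3M and at 23.5, 22.4 and 24.1 CPM at 29M. All 3 samples of 29M thus lay below those of 3M, which held for 10.5% of all genes tested there (11.9% lay above), and the nearest samples were 24.1 and 24.2 CPM. The log2 fold change was -0.13 ± 0.09 at 24M and -0.12 ± 0.07 at 29M (edgeR's quasi-likelihood test, Benjamini-Hochberg adjusted p of 0.376 and 0.42). Its ligand Pdgfb, made by endothelium, had -0.09 and 0.08, and 0 of 5 genes of PDGF signalling were called at either age.

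Vtn encodes vitronectin, an adhesive protein of plasma and matrix that pericytes make in the brain (ENSMUSG00000017344, chromosome 11, 78499091 to 78502324, plus strand). It had the widest spread in the old samples, with 70.4 CPM in replicates 1 and 4 together and 75.9, 50.2, 92.0 and 65.7 CPM in replicates 2, 3, 5 and 6 at 24M, and 73.0, 43.3 and 79.9 CPM at 29M. The 3M levels were 51.4 to 70.6 CPM with single reads and 63.2 to 67.8 CPM with paired reads. The log2 fold change was 0.19 ± 0.14 at 24M and 0.01 ± 0.15 at 29M (edgeR, Benjamini-Hochberg adjusted p of 0.396 and 0.99). The summed level of 10 genes of perivascular fibroblasts was 335 CPM in 24M replicate 3 and 609 CPM in replicate 5, the lowest and the highest at that age, as for Vtn. At 29M the lowest sample for that list was replicate 2 with 368 CPM, which was also the lowest for Vtn. The highest there was replicate 1 for the list (442 CPM) and replicate 3 for Vtn. In 3M single-end samples the list was lowest in replicate 3 (369 CPM), which had the highest Vtn (70.6 CPM). It was highest in replicate 5 (473 CPM), where Vtn was at 53.6 CPM. In 3M paired-end samples both were lowest in replicate 1 and highest in replicate 3. The part of these fibroblasts in the Vtn values was not tested.

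**Figure D2:**
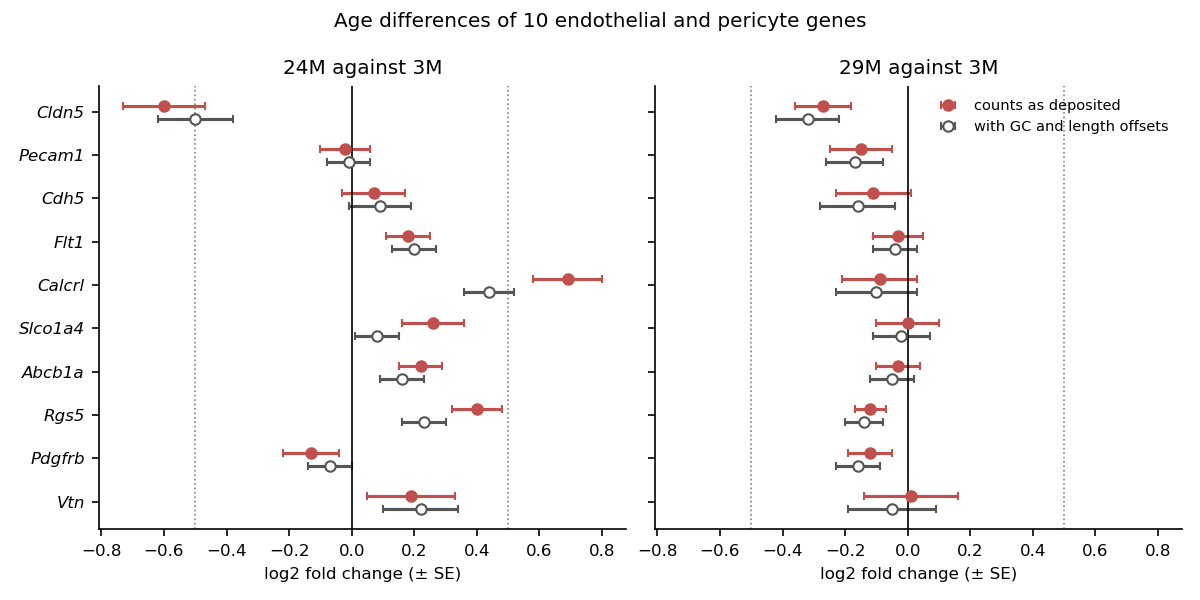
Log2 fold change (x axis, bars are SE) of the 10 genes at 24M (left) and 29M (right) against 3M of the same library type, with the counts as deposited (filled) and with offsets for GC content and transcript length (open). Dotted lines mark the fold threshold of 0.5. With offsets Cldn5 at 24M moves from -0.60 to -0.50, Calcrl from 0.69 to 0.44 and Rgs5 from 0.40 to 0.23.

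Ratios between genes of one cell type within a sample do not depend on library scaling. The ratios were chosen after the values were seen and are given without a test. They do not remove effects of GC content, which was 60.5% for Cldn5, 37.8% for Calcrl and 50.2% for Pecam1. For Rgs5 and Pdgfrb it was 41.1% and 54.9%. Counts of Cldn5 per count of Pecam1 were 1.34 to 2.04 at 3M and 1.02 to 1.22 at 24M, against 1.36 to 1.47 and 1.07 to 1.48 in the paired-end groups. Counts of Calcrl per count of Pecam1 were 0.287 to 0.424 at 3M and 0.52 to 0.676 at 24M, and 0.47 to 0.504 and 0.441 to 0.556 in the paired-end groups. Per count of Cdh5 the single-end ranges of Cldn5, 1.87 to 2.66 at 3M and 1.33 to 1.57 at 24M, and of Calcrl, 0.375 to 0.633 and 0.671 to 0.95, were also apart. Counts of Rgs5 per count of Pdgfrb were 2.91 to 4.42 at 3M and 4.22 to 6.21 at 24M, which overlapped, and 3.96 to 4.16 and 3.95 to 4.17 in the paired-end groups. Per count of Vtn the single-end ranges of Rgs5, 1.4 to 2.23 at 3M and 1.38 to 2.8 at 24M, overlapped as well. The ratio of Calcrl to Pecam1 in both paired-end groups thus lay above that of the 3M single-end samples.

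**Figure D3:**
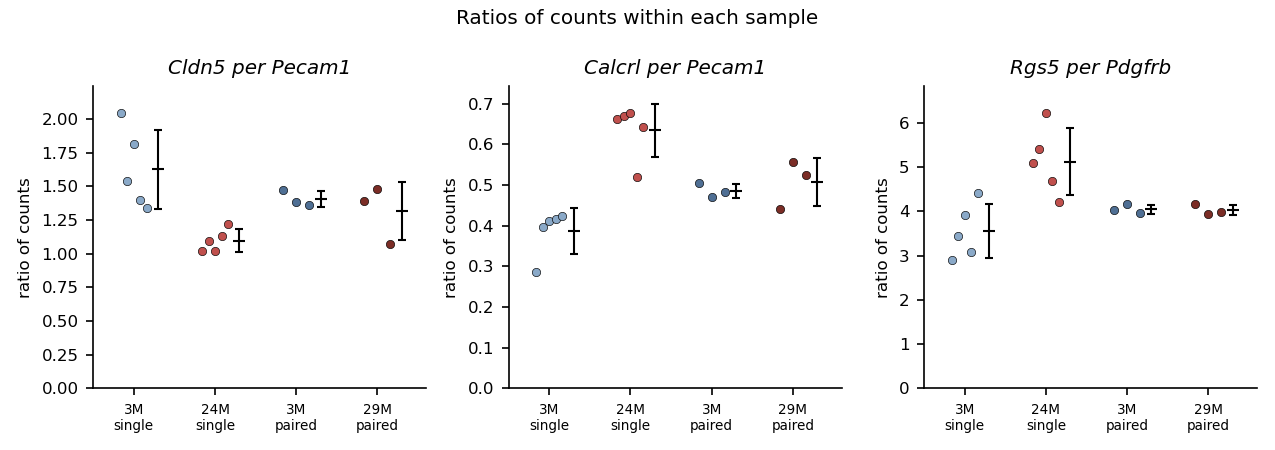
Ratio of counts between a pair of genes within each sample (y axis from 0, no unit) in the 4 groups, with the mean and SD beside the points. The 24M samples are apart from the 3M single-end samples for Cldn5 per Pecam1 (at most 1.22 against at least 1.34) and for Calcrl per Pecam1 (at least 0.52 against at most 0.424), and the paired-end groups overlap.

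The difference at 24M moved with the GC content of transcripts over all genes. With the tested genes split by GC content into 4 bins of equal size, the median log2 fold change at 24M was 0.14 in the lowest bin (31.0 to 45.1% GC), 0.02 and -0.05 in the middle ones and -0.10 in the highest (54.6 to 91.6%). At 29M the same medians were -0.02, -0.01, 0.00 and 0.02. Calcrl at 37.8%, Slco1a4 at 40.3% and Rgs5 at 41.1% GC lay in the lowest bin, and Cldn5 at 60.5% in the highest together with Vtn at 55.3% and Pdgfrb at 54.9%. The values of single samples also differed within the 3M group. The median deviation from the 3M mean of the highest GC bin minus that of the lowest, on the log2 scale, was 0.22 in 3M single-end replicate 1, which had the highest Cldn5 and the lowest Calcrl of its group. It was -0.23 in replicate 5, which had the highest Calcrl, Rgs5 and Slco1a4 of its group. Other extremes lay elsewhere, since the lowest Cldn5 and the lowest Rgs5 of the group were in replicate 4, at -0.02. The lowest Slco1a4 was in replicate 3, at 0.06. At 24M the same GC value ran from -0.39 to -0.07, and in paired-end samples from -0.05 to 0.09.

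A fit with offsets for GC content and length, added after the data were seen, gave smaller differences for Cldn5 and for the genes of low GC content. The log2 fold change of Cldn5 at 24M became -0.50 ± 0.12, a value of -0.498 before rounding and so just short of the fold threshold, with an adjusted p of 0.03 by edgeR. Calcrl became 0.44 ± 0.08, Rgs5 0.23 ± 0.07 and Slco1a4 0.08 ± 0.07, the last with an edgeR adjusted p of 0.533. Flt1, Vtn, Cdh5 and Pecam1 moved by at most 0.03. At 29M Cldn5 was at -0.32 ± 0.10 (edgeR adjusted p 0.0931), and the other 9 genes lay between -0.17 and -0.02. The 29M value minus the 24M value became -0.54 for Calcrl and -0.37 for Rgs5, and both genes had been chosen for that difference. How much of each difference at 24M goes with GC content rather than with age was not tested beyond this fit.

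**Figure D4:**
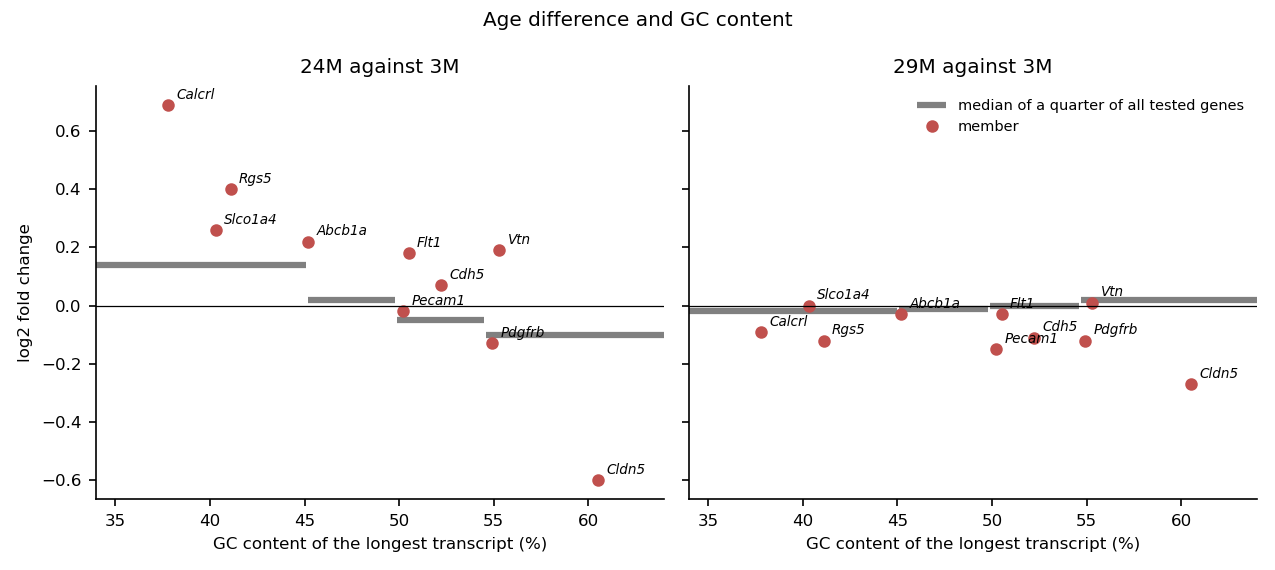
Log2 fold change (y axis) of each of the 10 genes against the GC content of its longest transcript (x axis, percent) at 24M (left) and 29M (right), with the median of all tested genes in each of the 4 GC bins as grey bars. At 24M the grey bars step down from 0.14 to -0.10 and the genes run from Calcrl at 0.69 to Cldn5 at -0.60, whereas at 29M the bars stay between -0.02 and 0.02.

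The difference between the 2 age differences was tested in a joint fit of all 4 groups. Of 16066 genes tested 0.0% passed in edgeR after Benjamini-Hochberg adjustment, although 1678 had an unadjusted p under 0.05, and DESeq2 called 1. For the 8 tested genes the 29M difference minus the 24M difference ran from -0.27 for Slco1a4 to 0.33 for Cldn5, with 6 of the 8 below 0 and a median of -0.19, against a median of 0.00854 over all genes. The smallest adjusted p among the 8 was 0.429 for Abcb1a by that edgeR test, at -0.26 ± 0.11.

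Of the 22 other endothelial genes 1 was called higher at 24M, 13 lay above 0 and the list's median was 0.07 on the log2 scale. At 29M 0 were called, 7 lay above 0 and the median was -0.09. The gene called was Fli1, an ETS factor of endothelium and blood cells, with a log2 fold change of 0.52 (edgeR, Benjamini-Hochberg adjusted p = 0.0467), and the call was lost in 8 of the 11 fits that left out 1 library and with GC offsets (0.44, edgeR adjusted p 0.0833). In the same endothelial list Cd93 differed by -0.40 at 24M, under the fold threshold, with an edgeR Benjamini-Hochberg adjusted p of 0.0353. The 16 genes of Wnt signalling at the barrier had 0 calls, with medians of 0.07 and -0.11. Markers of arterial and venous endothelium also had 0 calls in both comparisons. The 16 other pericyte genes had 0 calls, with a median of 0.12 and 11 above 0 at 24M, and a median of -0.15 and 6 above 0 at 29M.

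Among the vascular lists, genes of leukocyte adhesion such as Bst2 and Icam1 had the most calls at 29M. For the 6 such genes tested, the 24M comparison gave 1 call and the 29M comparison 2, all of them higher. The median log2 fold changes were 0.17 and 0.45. Over all genes tested, the shares called higher were 1.35% and 1.34%. The 2 comparisons differ in library type, and a difference of this list between the ages was not tested. Bst2, an interferon-induced membrane protein also made by microglia and other cells, was at 4.97 to 6.02 CPM in the paired-end 3M samples and at 10.5 to 22 CPM at 29M. Its log2 fold change was 1.55 (edgeR's quasi-likelihood test, Benjamini-Hochberg adjusted p = 0.00234), and the call was kept without any 1 of the 6 libraries. At 24M the level was 7.17 to 22.2 CPM against 4.45 to 7.17 CPM, and the log2 fold change of 1.02 (edgeR, Benjamini-Hochberg adjusted p = 0.0371) lost its call in 5 of 11 fits. That call was also lost with 24M replicates 1 and 4 left out (edgeR adjusted p 0.0718). Icam1, the adhesion molecule to which leukocyte integrins bind, was at 1.96 to 2.12 CPM at 3M and at 3.23 to 4.96 CPM at 29M. This was a log2 fold change of 1.02 (edgeR, Benjamini-Hochberg adjusted p = 0.0189), and its call was lost in 4 of 6 fits and with DESeq2 (adjusted p 0.0536).

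Among cells of the vessel wall outside the capillary, 0 genes of smooth muscle were called in either comparison, while 8 of 9 lay above 0 at 24M (median 0.17) and 2 of 8 at 29M (median -0.06). Of 10 genes of perivascular fibroblasts, 24M samples had 2 called higher and 29M samples 0. They were the small matrix proteoglycans Ogn, with a log2 fold change of 0.96 (edgeR, Benjamini-Hochberg adjusted p = 0.0226), and Lum, with 0.85 (0.0306). The calls were lost in 2 and 5 of 11 fits, in both cases without 24M replicate 2 and without 3M replicate 1. With GC offsets both calls were lost as well, at 0.68 for Ogn and 0.70 for Lum (edgeR adjusted p of 0.0693 and 0.0669). The 12 genes of the vascular basement membrane had 0 calls and medians of 0.00 and 0.05.

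**Figure D5:**
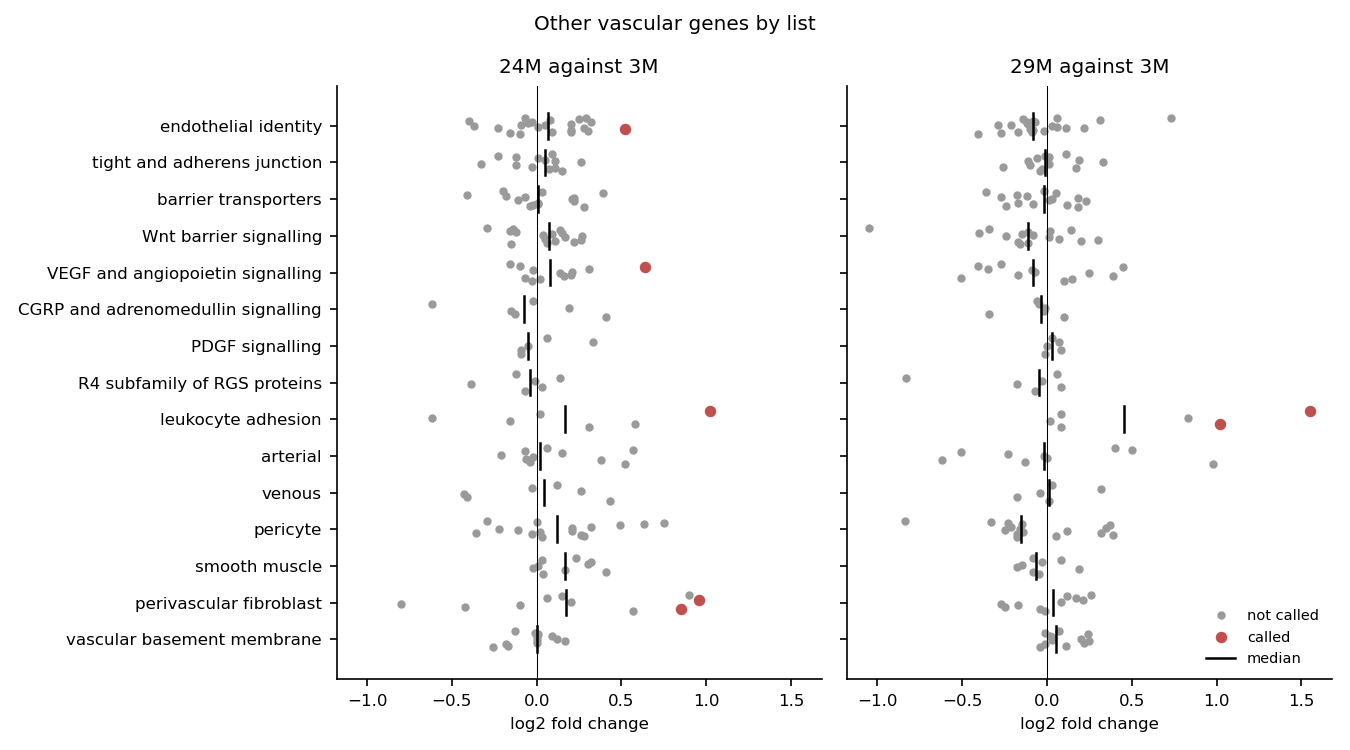
Log2 fold change (x axis) of every tested gene of 15 vascular gene lists (rows) at 24M (left) and 29M (right), with called genes in red and the median of each list as a black bar. The medians lie between -0.15 and 0.45, and the called gene furthest from 0 is Bst2, at 1.02 and 1.55.

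Markers of other cells and regions moved beside these values. Summed over 8 microglial genes the level was 387 to 450 CPM at 3M and 494 to 533 CPM at 24M, and 369 to 382 CPM against 491 to 514 CPM in the paired-end groups, with 2 genes called higher at 24M (P2ry12 and C1qa, lost in 6 and 1 of 11 fits) and 3 at 29M (C1qa, C1qb and Tmem119, the last lost in 3 of 6). The shares over all genes were the 1.35% and 1.34% given above. With 24M replicates 1 and 4 left out, P2ry12 (edgeR adjusted p 0.0683) and C1qa (log2 fold change 0.48) lost their 24M calls. With GC offsets P2ry12 at 24M fell to 0.29 and Tmem119 at 29M to 0.46, both under the fold threshold. Of 7 astrocyte genes 1 was called in each comparison, Gfap at 0.66 and 0.80. Genes of neurons, oligodendrocytes, choroid plexus and thalamus had 0 calls. Erythrocyte genes summed to 53.3 to 108 CPM at 3M and 76.3 to 545 CPM at 24M, and 70.6 to 83.7 CPM against 75.9 to 165 CPM at 29M, where Hba-a1 and Alas2 were called higher and lost the call in 4 and 5 of 6 fits that left out 1 library. The Hba-a1 call was also lost with DESeq2 (adjusted p 0.196), and that of Alas2 after thinning (edgeR adjusted p 0.0686). Neocortical genes summed to 258 to 370 CPM at 3M and 236 to 250 CPM at 24M without overlap, with Lamp5 and Cux2 called lower, and to 231 to 248 CPM against 216 to 242 CPM at 29M. The calls of Lamp5 and Cux2 were lost in 8 and 5 of 11 fits, among them the one without 3M replicate 4, and leaving out 1 library moved Lamp5 from -0.75 to -0.42. Both calls were also lost with 24M replicates 1 and 4 left out (edgeR adjusted p 0.081 and 0.0692). The Cux2 call was lost with GC offsets as well (-0.46, edgeR adjusted p 0.0523). The part of these cells and regions in the vascular values was not tested.

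For each gene the 5 genes most like it were sought among 11846 genes, by Pearson correlation over the 16 samples of log2 CPM minus the 3M mean of the library type. These are descriptions, and the samples share depth, age and base composition effects. For Cldn5 they were Parvb (r = 0.92), Mgrn1, Smarca4, Ece1 and Ctnnd2. For Calcrl they were Nap1l2 (r = 0.966), Elavl2, Bzw1, Klhl9 and Cyb5b, and for Rgs5 Ppargc1a (r = 0.93), Ids, Rsbn1l, Hapln1 and Ccdc85a. For Vtn they were Bgn (r = 0.932), Slc22a6, Colec12, Fmod and Olfml2a. The gene most like Cdh5 was Myh11 (r = 0.836), a myosin of smooth muscle, followed by Myl9, Tpm2, Ctu2 and Sema3g. For Abcb1a they were Adgrf5 (r = 0.889), a receptor found on endothelium, then Zfp420, Atp10a, Hnrnpr and Rsbn1l. First for Pecam1 was Ralb (r = 0.867), for Flt1 Gin1 (r = 0.85), for Slco1a4 Cd2ap (r = 0.939) and for Pdgfrb Lims2 (r = 0.879). Whether the genes found in this way belong to vascular cells was not tested.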

How the data were processed

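RNA was measured in 17 hippocampus libraries. The authors deposited raw counts of reads per gene for each library, made by aligning reads to the mouse genome (GRCm38.p2) with STAR 2.3.0 and counting with HTSeq, per the labels. For the annotation used in counting, the release is not given in the sources, and the kit did not mark strand. Of 38355 gene rows, 1753 had no name in the table of names used and were kept in the fits. Reads outside genes, 8.593 to 15.87% per library, were left out. Gene positions and lengths came from GENCODE M21 (GRCm38), upstream stretches from RefSeq.

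The 24M replicates 1 and 4 were averaged. Counts were fitted with edgeR 4.0.16 in R 4.3.3 (filterByExpr, TMM, quasi-likelihood F test, two-sided) for 24M against 3M single-end, 29M against 3M paired-end, and the difference of the 2 in 1 model of all 4 groups. Called genes had a Benjamini-Hochberg adjusted p up to 0.05 and differed by 0.5 or more on the log2 scale. CPM used TMM library sizes. On simulated counts, 200 of 200 genes changed by 1 on the log2 scale were recovered with 7 false calls among 15562 genes for 24M, and 200 of 200 with 12 among 14947 for 29M. The changed genes were drawn only from those of higher mean level. Smaller changes and effects of GC content were not simulated, so recovery of changes as small as those of the followed genes is not shown.

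The text names the 10 genes, up to 3 called genes per other list and comparison, the 5 genes most like a gene by correlation (mean of at least 5 CPM, pseudocount 0.5 CPM), and partners and marker genes of the lists. The calls of a list of vitronectin receptors and of the striatal list are not reported here. The genes and lists were chosen with earlier results of these data known. Alternatives were DESeq2 1.42.0, no filter, no fold threshold, all 4 groups in 1 fit, the 24M replicates 1 and 4 kept apart or left out, a replicate block, leaving out each library, thinning and GC offsets. Where 24M replicate 1 or 4 was the library left out, the other of the pair stayed in the fit.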

Additional observations from a re-analysis of the deposited data

Results flagged for a closer look

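The levels of the 10 genes were searched for samples far from the others of their group in the groups of 5, which gave 20 sets of values, and 0 had such a sample where chance gives about 1. Groups of 3 cannot be searched this way.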

How the results depend on the processing

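The 10 genes rested on 85 to 2795 counts per gene and sample. Over all genes, 212 were called higher and 102 lower at 24M. With replicates 1 and 4 left out these were 112 and 51, with all 4 groups in 1 fit 347 and 172, with no fold threshold 506 and 374, and with 1 library left out 92 to 395 and 28 to 172. The extremes came without 24M replicate 2 (92 and 28) and without 3M replicate 5 (395 and 172), and counts without 3M replicate 1 (121 higher), 3M replicate 4 (50 lower) or 24M replicate 3 (48 lower) also moved by over 1.5 times. At 29M, 202 were called higher and 17 lower, against 83 and 3 with all 4 groups in 1 fit, 368 and 73 with no filter and 351 and 100 with no fold threshold. Leaving out 1 library gave 113 to 207 and 7 to 27, with 118 and 7 without 29M replicate 1, 113 and 11 without 29M replicate 3, and 27 and 9 lower without 3M paired-end replicate 2 and 3. For the difference between the ages, DESeq2 called 1 gene lower, and leaving out 1 library gave 0 to 3 higher and 0 to 37 lower, with 3 and 37 without 3M single-end replicate 5. The cause of these shifts was not tested.

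The count of 1 tested gene called lower at 24M, Cldn5, became 0 with replicates 1 and 4 left out (log2 fold change -0.58, adjusted p = 0.0631 by edgeR) and with GC offsets (0 called), and was 0 to 1 with 1 library left out. Its log2 fold change ran from -0.69 to -0.47 with 1 library left out, and was -0.60 with DESeq2. Values near 0 changed sign. At 24M these were Pecam1 with 1 library left out (-0.07 to 0.01) and Cdh5 after thinning (0.00). At 29M they were, with 1 library left out, Cdh5 (-0.21 to 0.00), Flt1 (-0.13 to 0.06), Slco1a4 (-0.12 to 0.12), Abcb1a (-0.07 to 0.03) and Vtn (-0.17 to 0.22). Thinning gave 0.03 for Slco1a4 and 0.00 for Abcb1a, and Vtn was 0.00 with DESeq2 and with all 4 groups in 1 fit, and -0.05 with GC offsets. For the difference between the ages, Pdgfrb was -0.01 with replicates 1 and 4 left out, -0.09 with GC offsets and -0.06 to 0.06 with 1 library left out, and Vtn -0.37 to 0.02. Thinning and GC offsets were chosen after seeing the data.

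The replicate numbers did not pair the samples, since same-numbered samples deviated from their group means with correlations of -0.175 to 0.0965. A replicate block gave 171 genes higher and 101 lower at 24M, and 203 and 22 at 29M, kept the call of Cldn5 (log2 fold change -0.61), lost those of Angpt2, Fli1, Lamp5 and P2ry12 at 24M (edgeR adjusted p of 0.06, 0.0895, 0.0618 and 0.0609), and turned Slco1a4 (0.01) and Vtn (-0.04) at 29M in sign.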
